A study of Homo sapiens with 20 samples.

Results

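The genes described here encode the machinery that licenses replication origins and runs the replication fork. They are 50 listed genes, chosen by name from what their proteins do, out of 27697 protein_coding and lncRNA genes tested. The list was chosen with earlier results of these data known. All 50 were matched by gene name in GENCODE release 44, and all 50 passed the minimum of 1 estimated count per condition. RNA-seq of poly(A) RNA was done on NGP cells, an established human neuroblastoma line, in 10 samples treated with nutlin-3 (8 µM of the racemic mixture, named nutlin below) and 10 samples given ethanol, the vehicle. No other treatment or genetic change is named for either group, both come from the same cell line, and the time of treatment is not given in the sources used here. Nutlin-3 is a small molecule that blocks the binding of MDM2 to the tumor suppressor p53.

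Replication starts in G1 phase, when the origin recognition complex (ORC), CDC6 and CDT1 load the ring of MCM2 to MCM7 onto DNA as an inactive double ring, a step called licensing. In S phase the CDC7-DBF4 kinase and other factors help CDC45 and GINS to join the ring, which makes the active helicase that opens the fork. Polymerase alpha-primase then primes both strands, polymerases epsilon and delta extend them with the sliding clamp PCNA, and FEN1 and LIG1 finish the Okazaki fragments. Many of these genes are known targets of E2F transcription factors, which the RB family holds back when p53 induces p21.

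MDM2, itself a p53 target, was read first as a check of the labels. It had a median of 250 CPM (counts scaled to library size with TMM factors) in the vehicle samples and 5659 CPM in the nutlin samples, with a log2 fold change (LFC, nutlin over vehicle) of 4.51 ± 0.07 (SE, n = 10 and 10). The groups did not overlap. All 8 adrenergic neuroblastoma markers had a mean of at least 1 TPM (a level per transcript length) in the vehicle samples, where they summed to between 1705 and 2054 TPM, against 1583 to 2113 TPM in the nutlin samples. SOX10 and CD3E did not reach the minimum of counts, no other Schwann cell marker and no endothelial marker reached a vehicle mean of 1 TPM, and the leukocyte markers summed to between 2.09 and 4.65 TPM in the vehicle samples and between 7.04 and 10.3 TPM in the nutlin samples. Of the mesenchymal markers 3 of 6 reached a vehicle mean of 1 TPM, with a sum that moved from between 598 and 685 TPM to between 368 and 506 TPM. That sum is mostly VIM (mean 640 and 428 TPM). VIM and FN1 were called lower, and CD44, PRRX1, YAP1 and WWTR1 were called higher by edgeR from low levels (CD44 the highest of these, with means of 1.69 and 5.46 CPM). Of the fibroblast markers 2 of 5 reached a vehicle mean of 1 TPM, with sums of 8.21 to 11.6 and 10.9 to 14.1 TPM. These 2 moved in opposite directions, with COL1A1 called higher (LFC 1.98) and PDGFRB called lower (LFC -0.95). COL1A2, COL3A1 and DCN were not called. The part of these cell types in the results was not tested. Estimated counts per library ranged from 14455477 to 19532971 in the vehicle samples and from 15078052 to 17442896 in the nutlin samples.

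The stretches just before the start sites of the genes that fell most are shown because these windows are where E2F letters are looked for. The 4 members with the most negative LFC whose RefSeq promoter window held an E2F motif, and PCNA as the best known member, are printed 5′ to 3′ on the strand of the gene. The coordinates are of build GRCh38.p14, the sequences are from RefSeq, and capitals mark the E2F letters.
GINS2, chr16:85688955-85689104, minus strand: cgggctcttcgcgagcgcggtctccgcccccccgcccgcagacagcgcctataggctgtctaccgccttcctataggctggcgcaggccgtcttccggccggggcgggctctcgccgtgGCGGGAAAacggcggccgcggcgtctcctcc
MCM6, chr2:135876444-135876693, minus strand: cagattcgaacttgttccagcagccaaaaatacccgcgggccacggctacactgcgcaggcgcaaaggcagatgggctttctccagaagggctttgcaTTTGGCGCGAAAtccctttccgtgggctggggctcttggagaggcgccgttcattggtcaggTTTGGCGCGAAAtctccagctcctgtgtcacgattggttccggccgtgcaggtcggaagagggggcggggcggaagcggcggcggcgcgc
CLSPN, chr1:35769976-35770128, minus strand: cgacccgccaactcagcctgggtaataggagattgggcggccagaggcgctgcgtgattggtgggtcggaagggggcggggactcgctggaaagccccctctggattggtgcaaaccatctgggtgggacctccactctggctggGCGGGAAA
CDC6, chr17:40287729-40287893, plus strand: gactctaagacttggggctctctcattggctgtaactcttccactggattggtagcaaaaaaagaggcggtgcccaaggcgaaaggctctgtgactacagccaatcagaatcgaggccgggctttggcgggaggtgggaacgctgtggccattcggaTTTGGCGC
PCNA, chr20:5119959-5120108, minus strand: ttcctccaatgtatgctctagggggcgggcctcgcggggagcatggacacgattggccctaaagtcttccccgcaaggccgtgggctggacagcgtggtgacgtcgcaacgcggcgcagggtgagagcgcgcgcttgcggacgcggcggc

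Each stretch holds the 150 bases before the start site of the RefSeq window nearest to the 5′ end of the most abundant transcript. The stretch of MCM6 holds 250 bases to take in its upstream motif, and those of CLSPN and CDC6 run on for 3 and 15 bases past the start to the end of theirs. MCM6 held 4 overlapping matches in 2 blocks of the same letters. GINS2 held 1 match, whose first base lay 31 bases before the start. PCNA held none in this window, though its other RefSeq window, at an upstream start, held the motif. MCM10, the member with the next most negative LFC after CLSPN, had no match and is therefore not printed.

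A RefSeq window of 300 bases (250 before and 50 after the start) was found for 44 of the 50 members, and the windows of the other 6 (MCM4, MCM5, GINS4, POLD3, RPA2 and RPA3) were not analysed here. The E2F motif was searched as TTTCGCGC, TTTGGCGC, TTTCCCGC and TTTGCCGC on both strands, and the first of these can overlap the others as in MCM6. It was in a window of 21 members (47.7%), against 6.5% of 10376 expressed protein_coding genes (mean CPM of 1 or more) with a window, and 3.31% of all 35116 windows. The CCAAT box, searched as CCAAT, was in a window of 26 members (59.1%), against 43.9% of the same protein_coding genes and 34.6% of all windows. The CHR element, searched as TTTGAA and TTCGAA, was in a window of 2 members, MCM6 and DBF4 (4.55%), against 15.6% of the protein_coding genes and 16.4% of all windows. Members with the E2F letters had a median LFC of -1.76 (21 genes) and members without them -1.70 (23 genes), values close to each other. LIG1, which did not pass the test, held the E2F letters, and ORC4 did not.

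After nutlin, 48 of the 50 members were called lower at 5% FDR (edgeR quasi-likelihood test, Benjamini-Hochberg adjustment over all genes tested) and 0 were called higher. At an unadjusted p under 0.05 the count of members higher was also 0. The share called lower was 26.5% over all genes tested and 50.6% over expressed protein_coding genes, those with a mean CPM of 1 or more, and the share called higher was 32.3% over all genes tested. The median LFC of the members was -1.73, a level 3.31-fold lower in nutlin, beside a median of -0.15 over the protein_coding genes at that level and 0.19 over all genes tested. A fall of at least 1 on the log2 scale was called for 43 members, against 5.81% of all genes tested and 9.23% of the protein_coding genes, and a fall of at least 2 for 20 members, against 1.77% of the protein_coding genes. In 48 members every nutlin sample lay below every vehicle sample in CPM, against 34.6% of the protein_coding genes. In bulk RNA, fewer cells in S phase and less RNA per cell cannot be told apart.

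**Figure D1:**
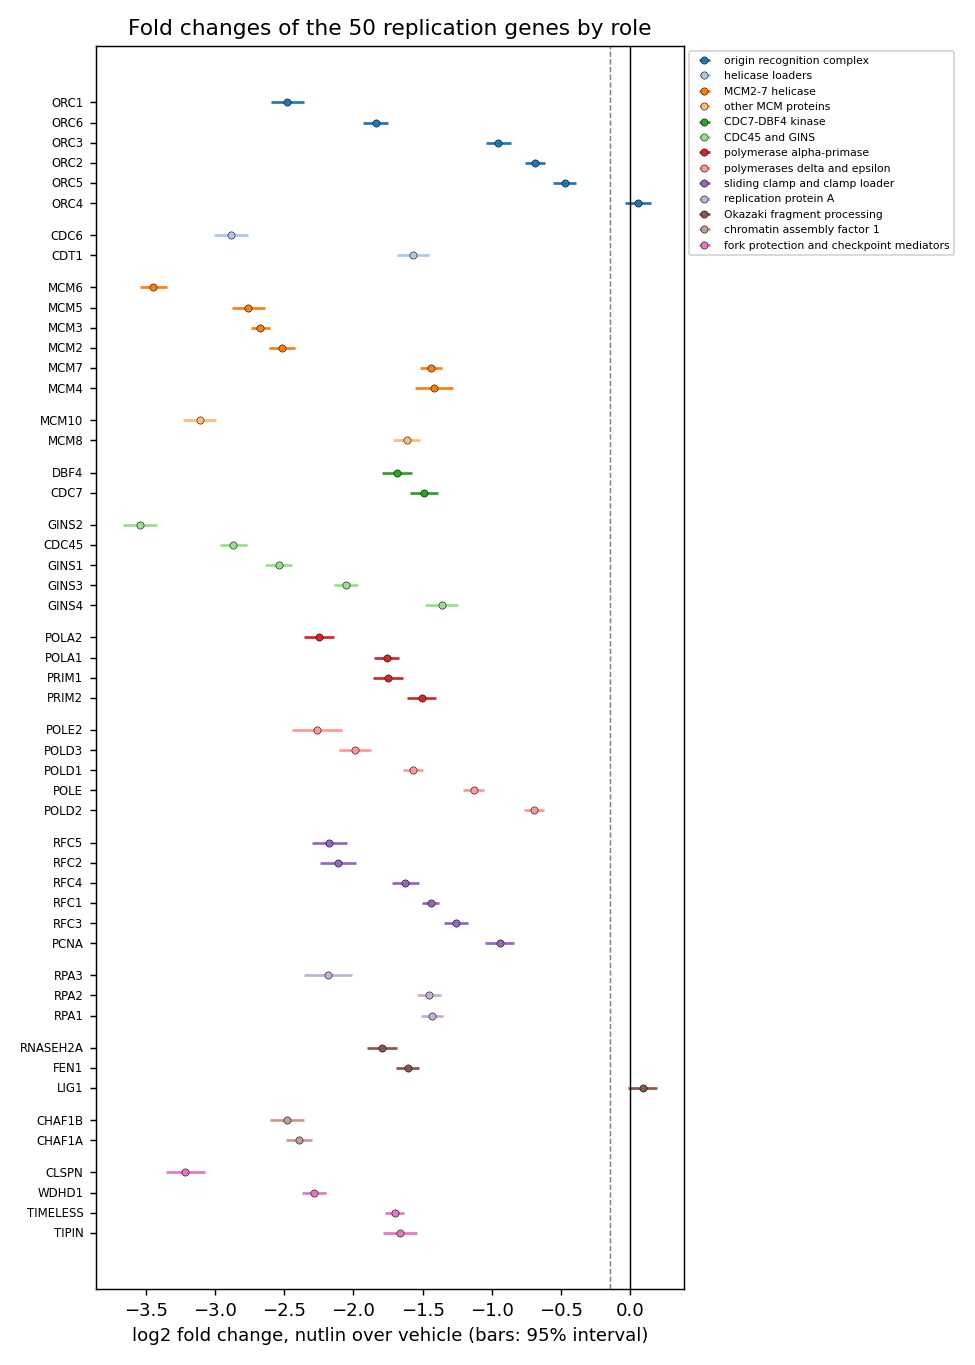
LFC of each of the 50 members, nutlin over vehicle, grouped by role, with bars of the 95% interval from the edgeR fit (n = 10 and 10). The dashed line is the median LFC of expressed protein_coding genes (-0.15); only ORC4 and LIG1 sit at or above 0, and GINS2 (-3.54) and MCM6 (-3.44) are farthest to the left.

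The origin recognition complex, which marks origins throughout the cell cycle, was the group with the widest spread between subunits. Of its 6 genes 5 were called lower, with LFCs from -2.48 (ORC1) to -0.47 (ORC5). ORC1 (chromosome 1, bases 52372829 to 52404423 of GRCh38), the largest ORC subunit and the one whose protein rises and falls through the cell cycle, had 56.7, 58.0 and 68.2 CPM (lowest, median and highest) in the vehicle samples and 8.52, 10.6 and 12.6 CPM in the nutlin samples. Its LFC was -2.48 ± 0.06 (SE, adjusted p = 1.26e-24 by edgeR), a level 5.57-fold lower. ORC6, the smallest subunit, fell by 1.84 on the log2 scale.

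The other subunits fell less or not at all. ORC2, part of the stable core of the complex, had 59.97, 62.4 and 69.5 CPM in the vehicle samples and 35.4, 39.1 and 42.4 CPM in the nutlin samples, an LFC of -0.69 ± 0.04. ORC5, another core subunit, had 26.0, 28.9 and 31.3 CPM against 18.9, 20.5 and 22.3 CPM, and its LFC of -0.47 ± 0.04 was the least negative among the members called lower. No nutlin sample reached a vehicle sample for either gene. ORC4, a core subunit on chromosome 2 (bases 147930396 to 148021604), had 60.3, 70.2 and 77.7 CPM in the vehicle samples and 65.3, 73.1 and 77.2 CPM in the nutlin samples. The nutlin range of ORC4 lay within its vehicle range, and its LFC of 0.05 ± 0.05 did not pass the test (adjusted p = 0.341 by edgeR). Per length, ORC1 and ORC4 had like means in the vehicle samples, 20.6 ± 1.3 TPM (SD, n = 10) for ORC1 and 20.5 ± 3.1 TPM for ORC4, and 3.66 ± 0.64 TPM for ORC1 and 20.7 ± 2.4 TPM for ORC4 in the nutlin samples.

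CDC6 and CDT1, which bring the MCM ring to ORC, both fell but not by the same amount. CDC6 (chromosome 17, bases 40287879 to 40304657) had 146, 163 and 194 CPM in the vehicle samples and 16.5, 22.4 and 26.4 CPM in the nutlin samples, an LFC of -2.89 ± 0.06, or 7.39-fold lower. CDT1 had 68.2, 77.1 and 82.5 CPM in the vehicle samples and 19.9, 26.4 and 31.5 CPM in the nutlin samples, an LFC of -1.57 ± 0.06, or 2.97-fold lower. No nutlin sample of either gene reached a vehicle sample.

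All 6 genes of the MCM2 to MCM7 ring were called lower, 4 of them by more than 2 on the log2 scale. MCM6 (chromosome 2, bases 135839626 to 135876443) had 246, 254 and 292 CPM in the vehicle samples and 21.1, 22.8 and 28.6 CPM in the nutlin samples. Its LFC was -3.44 ± 0.05, a level 10.9-fold lower (adjusted p = 6.52e-30 by edgeR). MCM2 had 169.8, 183 and 214 CPM against 28.3, 32.7 and 38.1 CPM, an LFC of -2.51 ± 0.05. MCM5 (-2.76) and MCM3 (-2.67) lay between them. MCM7 (-1.44) and MCM4 (-1.41) fell by less than the other 4, and what is known of their transcripts is given further down. For MCM2, 23.6% of the exonic bases overlap an antisense gene, and whether counting used strand is not stated.

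Of the MCM proteins outside the ring, MCM10, which is needed to fire the loaded helicase, fell more than MCM8, which acts with MCM9 in repair of broken forks. MCM10 had 101.5, 108 and 118 CPM in the vehicle samples and 9.98, 12.2 and 16.9 CPM in the nutlin samples, an LFC of -3.11 ± 0.06. MCM8 had an LFC of -1.61, and 33.3% of its exonic bases are shared with a gene on the same strand, between which reads cannot be told apart with certainty. The kinase that fires origins fell in both of its subunits, by 1.49 (CDC7, the catalytic subunit) and 1.68 (DBF4, its activator) on the log2 scale.

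CDC45 and the 4 GINS subunits turn the loaded ring into the active helicase, and all 5 genes were called lower. GINS2 (chromosome 16, bases 85676198 to 85690073) had the most negative LFC of all members, -3.54 ± 0.06, a level 11.6-fold lower (adjusted p = 1.35e-27 by edgeR). Its samples had 94.7, 109 and 141 CPM with vehicle and 8.69, 9.55 and 10.2 CPM with nutlin. CDC45 had 144, 159 and 184 CPM against 18.9, 22.3 and 24.6 CPM, an LFC of -2.87 ± 0.05. GINS1 (-2.54) and GINS3 (-2.05) came next. GINS4 fell least in this group, by 1.36, and 23.4% of its exonic bases overlap antisense genes.

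**Figure D2:**
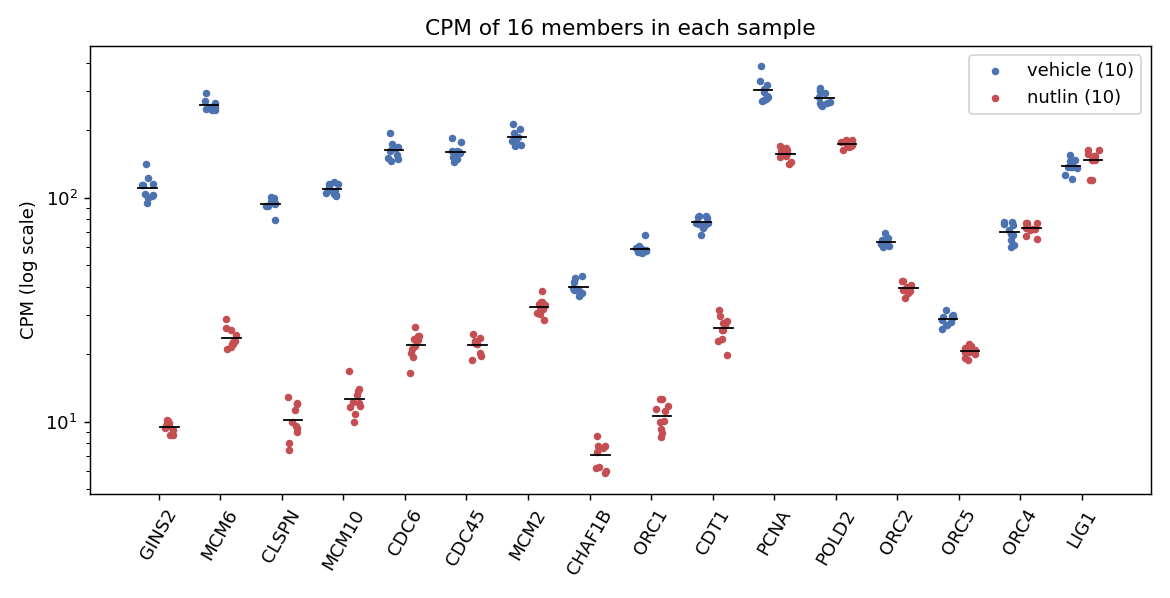
CPM (log axis) of 16 members in each of the 10 vehicle and 10 nutlin samples, with a black bar at each group mean. The vehicle and nutlin points of GINS2, MCM6, CLSPN and MCM10 lie about an axis decade apart, those of ORC2 and ORC5 lie nearer to each other without overlap, and those of ORC4 and LIG1 overlap.

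The polymerases fell in all 9 genes, and subunits of 1 enzyme did not fall alike. In polymerase alpha-primase, POLA2 (-2.25), the regulatory subunit, was lower than the catalytic POLA1 (-1.76), the primase PRIM1 (-1.75) and its partner PRIM2 (-1.51). Among the subunits of polymerases delta and epsilon, POLE2 (-2.27) and POLD3 (-1.99) fell more than the catalytic POLD1 (-1.57) and POLE (-1.13). POLD2, the small subunit of polymerase delta, fell least. It had 255, 275 and 309 CPM in the vehicle samples and 163, 171 and 181 CPM in the nutlin samples, an LFC of -0.69 ± 0.04, with no overlap between the groups.

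The sliding clamp PCNA (chromosome 20, bases 5114953 to 5126626) holds polymerases on DNA, also in repair, and fell less than its loader. PCNA had 269, 290 and 385 CPM in the vehicle samples and 141, 159.9 and 170 CPM in the nutlin samples, and vehicle sample 10 was its highest. The LFC was -0.94 ± 0.05, a level 1.92-fold lower (adjusted p = 1.06e-15 by edgeR), and -0.87 without vehicle sample 10. The RFC genes, which build the loader, had LFCs of -2.17 (RFC5), -2.11 (RFC2), -1.63 (RFC4), -1.44 (RFC1) and -1.26 (RFC3). Replication protein A, which covers single-stranded DNA, fell in all 3 subunits, by 2.18 (RPA3), 1.45 (RPA2) and 1.43 (RPA1).

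Okazaki fragment processing was the other group with a member that did not pass the test. FEN1, which cuts the flaps, had an LFC of -1.61, and RNASEH2A, which removes RNA from DNA, -1.79, though 53.3% of the exonic bases of RNASEH2A are shared with a gene on the same strand. LIG1 (chromosome 19, bases 48115445 to 48170603), the ligase that seals the fragments, had 121, 137 and 155 CPM in the vehicle samples and 119, 152 and 164 CPM in the nutlin samples. The nutlin range covered the vehicle range, and the LFC of 0.09 ± 0.05 did not pass the test (adjusted p = 0.155 by edgeR). LIG1 depended on the scaling and on 1 library. Among 11 other settings, of which 1% FDR is the same fit at a stricter threshold, it was called higher in 5. It was called higher, with an LFC of 0.14 (adjusted p = 0.032), with the size factors of DESeq2 in the edgeR test, and with 0.13 (adjusted p = 0.038) in the edgeR test without vehicle sample 10. ORC4 was called higher in 2 settings, with an LFC of 0.13 after filterByExpr and 0.17 when only protein_coding genes were fitted. In the latter setting the LFCs of the protein_coding genes shifted by a median of 0.11. Neither gene had a negative LFC in any setting run.

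The remaining members act behind or around the fork. Chromatin assembly factor 1 places new histones, and its subunits fell together. CHAF1B had 36.3, 38.9 and 44.5 CPM in the vehicle samples and 5.88, 7.48 and 8.60 CPM in the nutlin samples, an LFC of -2.48 ± 0.06, and CHAF1A had -2.39. CLSPN (chromosome 1, bases 35720218 to 35769978), the mediator that helps ATR to activate CHK1, had 79.7, 94.7 and 101 CPM against 7.47, 9.72 and 12.8 CPM. Its LFC was -3.21 ± 0.07, a level 9.27-fold lower. WDHD1, which couples the helicase to polymerase alpha, had -2.28, and the fork protection pair TIMELESS and TIPIN had -1.70 and -1.67. Exonic bases are also shared with another gene on the same strand in TIPIN (21.1%), POLA2 (16.8%) and PRIM1 (15.1%), and apart from the members named with their overlap no other member shares more than PRIM1 on either strand.

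Levels per length also differed between members. MCM7 had the highest mean in the vehicle samples (304 TPM), followed by PCNA (264 TPM), POLD2 (245 TPM) and MCM3 (208 TPM), leaving out MCM4. CHAF1B was lowest with 11.9 TPM. In the nutlin samples POLD2 was highest with 162 TPM, and CHAF1B was again lowest with 2.62 TPM. MCM6 had 80.3 TPM in the vehicle samples, more than the 62.0 TPM of MCM2, and 7.55 TPM in the nutlin samples, less than the 11.3 TPM of MCM2. The coefficient of variation over the 10 samples had a median of 6.58% among members in the vehicle samples and 8.71% in the nutlin samples.

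Vehicle sample 10 stood apart from the other vehicle samples in these genes. Whether it also did so in genes outside the members was not looked at. Averaged over the 50 members, it was 0.14 above the vehicle mean on the log2 scale, while the other vehicle samples lay between -0.05 and 0.03, and it was the highest vehicle sample for 29 members. Among the nutlin samples the averages ran from -1.94 (sample 4) to -1.71 (sample 7), and sample 7 was highest for 18 members. Without vehicle sample 10, or without nutlin sample 7, 48 members were still called lower.

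**Figure D3:**
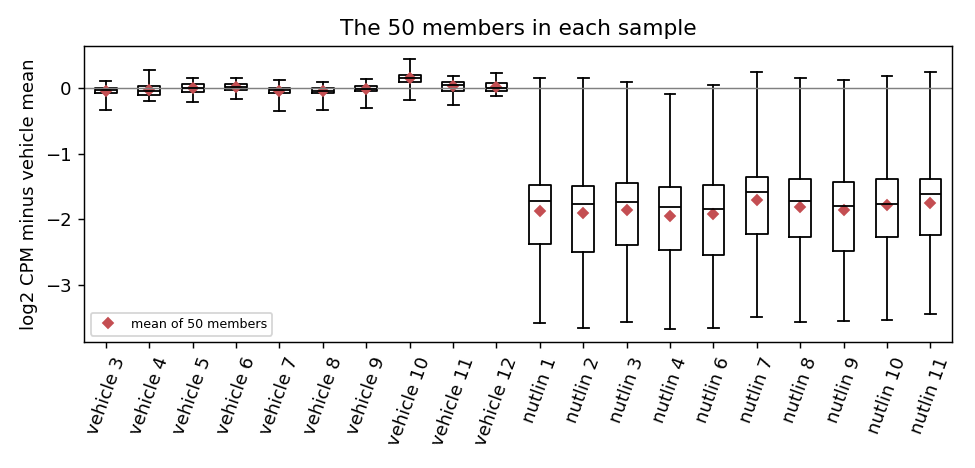
Log2 CPM of the 50 members minus each member's vehicle mean, by sample; boxes span the quartiles with a line at the median, whiskers reach the lowest and highest member, and diamonds mark the mean. Vehicle sample 10 sits at 0.14, and the nutlin samples sit between -1.94 and -1.71.

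Ratios between partner genes were compared within each library, so that the scaling of libraries does not enter. The log2 ratio of counts was tested for 18 pairs by a two-sided permutation test (100000 resamples, smallest p 2e-05), with Benjamini-Hochberg adjustment over the 18. Of these 14 passed at an adjusted p of 0.05. Pairs outside the 18 were not tested, so how often other pairs of genes would pass is not known. GINS2 fell against GINS4 by 2.17 (95% interval -2.33 to -2.003, adjusted p = 3.6e-05), from a ratio of 2.13 ± 0.19 (SD, n = 10) in the vehicle samples to -0.04 ± 0.16. ORC1 fell against ORC2 by 1.80 (-1.95 to -1.64), and CDC6 against CDT1 by 1.31 (-1.42 to -1.21). ORC6 fell against ORC2, and POLE2 against POLE, each by 1.15 on the log2 scale. In the other direction, MCM8 rose against MCM2 by 0.90 (0.74 to 1.05) and PCNA against FEN1 by 0.67 (0.58 to 0.76). MCM8 is outside the MCM2 to MCM7 ring, so not every pair tested belongs to 1 complex. Of the exonic bases of MCM8, 33.3% are shared with a gene on the same strand.

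The other 4 pairs did not pass. The interval of the difference was -0.19 to 0.21 for MCM4 and MCM7, -0.09 to 0.06 for RPA2 and RPA1, -0.20 to 0.03 for CHAF1B and CHAF1A, and -0.17 to 0.09 for TIMELESS and TIPIN, which leaves room for differences within these bounds. On TPM in place of counts, MCM4 fell against MCM7 by 0.36 (adjusted p = 0.00046), RPA2 against RPA1 by 0.12 (adjusted p = 0.025), and RFC3 against RFC1, which had risen by 0.19 on counts, no longer differed past the threshold (-0.02, adjusted p = 0.80), all by the same permutation test.

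**Figure D4:**
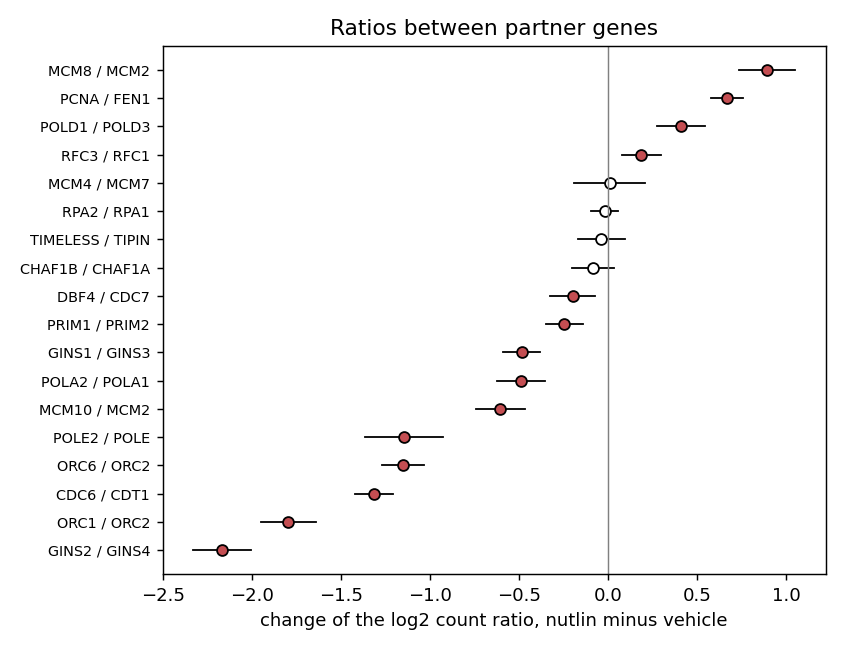
Change of the log2 count ratio of each of 18 partner pairs, nutlin minus vehicle, with 95% intervals from the pooled SD of the samples (n = 10 and 10); filled points passed at an adjusted p of 0.05. GINS2 to GINS4 (-2.17) and ORC1 to ORC2 (-1.80) are lowest, and MCM8 to MCM2 (0.90) is highest.

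At the level of transcripts, 399 annotated transcripts of the members were quantified, of which 105, from 47 members, had a mean of at least 5 TPM over the samples. In 77 of the 105 every nutlin sample was below every vehicle sample, against 24.9% of all transcripts at that level. In 1 every nutlin sample was above every vehicle sample, against 9.7% of all such transcripts, and the other 27 overlapped. The exception was MCM7-207, and MCM7 was looked at further after its values were seen, so these values are a description with no test.

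MCM7 lies on chromosome 7 (bases 100092233 to 100101940 of GRCh38, minus strand). Its 5 transcripts whose 5′ ends are annotated at bases 100101310 to 100101940 summed to 289.5 ± 6.1 TPM (SD, n = 10) in the vehicle samples and 99.2 ± 5.0 TPM in the nutlin samples. The most abundant coding transcript among them, MCM7-201, fell from a median of 108 TPM to 24.1 TPM, 4.40-fold on the TPM means, where the TPM of the whole gene fell 2.30-fold. MCM7-209, annotated as retained_intron, fell from 163 to 70.7 TPM. Of the 5 transcripts with 5′ ends inside the gene, the 4 at bases 100100393 to 100100869 summed to 5.08 ± 1.88 TPM in the vehicle samples and 26.8 ± 2.2 TPM in the nutlin samples, 5.27-fold higher. Their lowest, median and highest sums were 1.88, 5.39 and 8.28 TPM with vehicle and 23.5, 26.5 and 30.6 TPM with nutlin, with no overlap. They made up 1.67% of the TPM of MCM7 in the vehicle samples and 20.3% in the nutlin samples. The other, MCM7-210, whose 5′ end is farther into the gene at base 100095664, had 6.41, 9.21 and 12.7 TPM with vehicle and 3.86, 5.88 and 11.8 TPM with nutlin, and its groups overlapped. With it included, the 5 transcripts summed to 14.4 ± 3.2 TPM and 32.9 ± 3.2 TPM, 2.29-fold higher, and made up 4.74% and 24.9% of the TPM of the gene. The 4 were grouped after their values were seen. MCM7-207 alone, also annotated as retained_intron, had 0.20, 2.81 and 4.35 TPM against 10.8, 13.6 and 16.8 TPM. These levels are kallisto's split of reads between overlapping transcripts and were not tested against read positions.

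**Figure D5:**
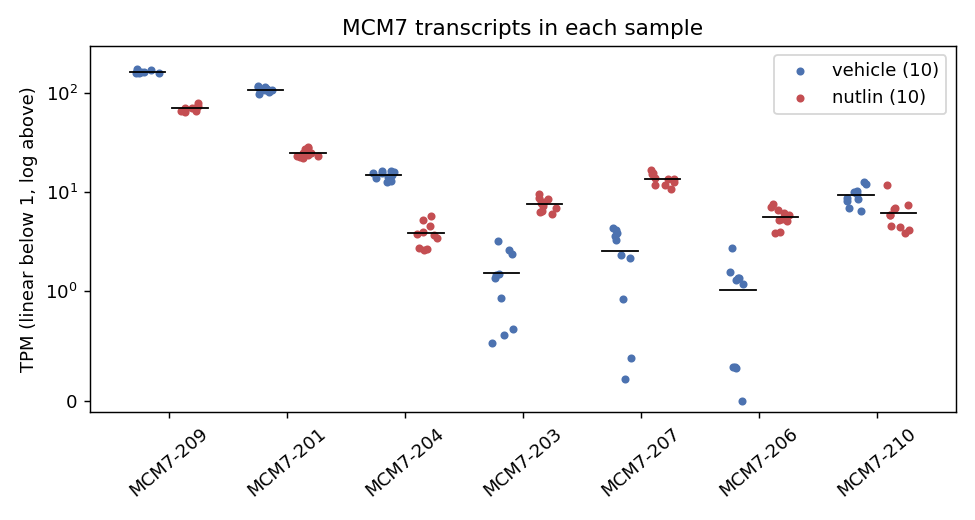
TPM (axis linear below 1 and log above) of 7 MCM7 transcripts in each sample, with a black bar at each group mean. The 3 transcripts on the left, with 5′ ends at or near the annotated gene start, were lower in all 10 nutlin samples, while the next 3, with 5′ ends inside the gene, were higher; MCM7-210, on the far right, also starts inside the gene, and its groups overlap.

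The share of a gene's TPM on protein_coding transcripts was tested in the 43 members where it varied, by the same permutation test with adjustment over the 43. It passed in 14 members, and in 13 of these it moved by at least 5 percentage points, down in 11 and up in 2 (MCM4 and POLD1). The share was not computed for genes outside the members, so whether other genes moved alike is not known. CHAF1B moved most, from 75.3 ± 4.4% (SD, n = 10) in the vehicle samples to 55.5 ± 10.6% in the nutlin samples. GINS3 went from 92.1 ± 3.5% to 77.3 ± 8.6%, ORC6 from 57.9 ± 5.9% to 45.4 ± 7.0%, and MCM7 from 36.3 ± 2.0% to 24.4 ± 1.2%. With shares of counts in place of TPM, 6 members met both conditions, 5 of them (ORC6, MCM7, GINS3, CHAF1B and TIPIN) in common with the 13. The rises of MCM4 and POLD1 did not pass in counts (adjusted p = 0.24 and 0.17 by the permutation test). In counts the share of CHAF1B went from 93.6 ± 1.4% in the vehicle samples to 84.1 ± 6.0% in the nutlin samples, a smaller move than in TPM.

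For MCM4 and DBF4 the level may be incomplete. Only 8.80% of the TPM of MCM4 in the vehicle samples lay on protein_coding transcripts, and transcripts in the files that did not match GENCODE release 44 were left out. The fall of MCM4 and the rise of its coding share are those of its matched transcripts. DBF4 had a like low share, 2.58%, on its coding transcript, and its values have the same limit.

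Most listed replication genes outside the 50 moved the same way. Of 29 such genes in a list of licensing, clamp, polymerase, flap and histone factors, 28 were called lower and 1 higher, with a median LFC of -1.33. The share called lower was 26.5% over all genes tested and 50.6% over expressed protein_coding genes. The share called higher was 32.3% over all genes tested. This list, like the members, was chosen with earlier results of these data known. DTL, which brings CDT1 and other proteins to degradation at the clamp, had 157, 176 and 197 CPM in the vehicle samples and 17.5, 21.04 and 26.5 CPM in the nutlin samples, an LFC of -3.03 ± 0.06. ASF1B, a histone chaperone that feeds chromatin assembly, had 40.1, 43.5 and 49.7 CPM against 4.50, 5.50 and 6.70 CPM, an LFC of -3.02 ± 0.07. DSCC1, part of an alternative clamp loader, had 34.3, 38.2 and 42.3 CPM against 4.57, 5.68 and 6.68 CPM, an LFC of -2.74 ± 0.06. GMNN, the inhibitor of CDT1, had 87.7, 97.1 and 120 CPM against 26.7, 30.7 and 32.8 CPM, an LFC of -1.71 ± 0.05, so the loader and its inhibitor fell by similar amounts (CDT1 -1.57), a difference that was not tested. POLD4, the smallest subunit of polymerase delta, was the gene called higher, from 0.55, 1.39 and 1.69 CPM to 1.51, 2.10 and 2.82 CPM, an LFC of 0.77 ± 0.16 (adjusted p = 0.00013 by edgeR) at a low level where the groups overlapped.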

How the data were processed

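RNA-seq was analysed for 20 samples of the NGP cell line, 10 vehicle and 10 nutlin, grouped by their titles. The authors quantified 75-base read pairs of stranded poly(A) libraries with kallisto (version 0.42.4 in the submitters' processing notes) on GRCh38 transcripts of Ensembl release 85, and deposited estimated counts, TPM and effective lengths for 198968 transcripts. The estimated counts are not normalized, and the authors' TPM values are scaled by effective length and library size. Whether counting used strand is not stated. The authors call the samples biological replicates.

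Transcripts were joined to genes with GENCODE release 44. Of these 191106 (96.05%) matched and 7862 were left out, so that 96.7 to 96.8% of the counts of a vehicle sample and 95.7 to 95.9% of those of a nutlin sample were used. Counts were summed per gene, rounded, and tested with edgeR 4.0.16 in R 4.3.3 (quasi-likelihood, TMM, condition only, 5% FDR over the 27697 genes with at least 1 count per condition). At these totals counting error is large for genes near 1 CPM and smaller for the members. It is not small for every member, as POLE2 had a mean of only 3.33 CPM in the nutlin samples, with a coefficient of variation of 22.1%. CPM used TMM factors. Ratios added 0.5 to each count. Permutation tests, intervals and motif searches used Python 3.11.15 with numpy 2.4.6 and scipy 1.17.1. The tests were run on simulated data first. Alternatives were DESeq2 1.42.0 (size factors, Wald test), limma 3.58.1 (voom), filterByExpr, a length offset, protein_coding genes only, 1% FDR and a replicate block. Leaving out vehicle sample 10 or nutlin sample 7 was added after seeing the data. No sample duplicated another.

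The members and lists were chosen with earlier results of these data known. Values were given for the 3 members with the most and the 3 with the least negative LFC among those called, for members called higher or not called, and for ORC1, CDC6, CDT1, MCM2, MCM10, CDC45, PCNA and CHAF1B. Of the other replication genes, values were given for the 3 largest absolute LFCs (DTL among them) and GMNN, and for POLD4 as the only gene called higher, which was chosen after its values were seen. Promoters were printed for the 4 members with the most negative LFC and an E2F motif, and PCNA.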

Additional observations from a re-analysis of the deposited data

Results flagged for a closer look

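In 100 combinations of a member and a group of 10 samples, the highest or lowest sample was set apart from the nearest other by more of the group's range than Dixon's 95% limit allows in 11, where chance gives about 1 in 20 groups. Vehicle sample 10 accounted for 6 of them, all as the highest sample, and the members share its library. It had 68.2 CPM of ORC1 (nearest other 60.7), 112 CPM of RFC1 (nearest 104), 102 CPM of RFC4 (nearest 87.8), 65.4 CPM of RFC5 (nearest 58.5), 152 CPM of RPA2 (nearest 132) and 145 CPM of FEN1 (nearest 128). Nutlin sample 7 was set apart as the highest for RFC2 with 21.3 CPM (nearest 17.98) and for FEN1 with 46.3 CPM (nearest 41.1). Vehicle sample 7 was set apart as the lowest for POLD3 with 24.9 CPM (nearest 29.8) and for CLSPN with 79.7 CPM (nearest 91.2), and vehicle sample 4 as the lowest for POLD1 with 197.9 CPM (nearest 219). All these members were called lower without vehicle sample 10 and without nutlin sample 7.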

How the results depend on the processing

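The number of members called lower was 48, and that of the other replication genes called lower 28 and higher 1, under every alternative run. Members called higher, 0 in the edgeR fit, limma voom, the length offset, the replicate block, 1% FDR and without nutlin sample 7, became 1 (LIG1) with DESeq2 size factors, with the DESeq2 Wald test and without vehicle sample 10, and 2 (LIG1 and ORC4) with filterByExpr and with protein_coding genes only. Of 550 LFCs of single members over the other settings 543 stayed on the same side of the threshold, 7 passed it (all LIG1 or ORC4) and 0 changed sign. The 1% FDR setting is among these, and it kept the LFCs of the edgeR fit and changed only the threshold. The largest shift was 0.38 (POLE2 with the length offset, -1.88). The settings chosen after seeing the data were those without a sample and the fit of the 16 samples below without the number.

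Of the 18 partner pairs 14 passed on counts, 15 on TPM and 14 with the replicate block. MCM4 to MCM7 changed sign from 0.01 to -0.36 on TPM and to -0.041 with the replicate block, RFC3 to RFC1 from 0.19 to -0.024 on TPM, and CHAF1B to CHAF1A from -0.09 to 0.17 on TPM. The number of members whose coding share passed the test and moved by at least 5 points fell from 13 to 6 with counts. The cause was not tested. No shared deviation was seen between samples with the same replicate number, which 16 samples had. The 8 correlations of their deviations ran from -0.05 to 0.08, and 1 vehicle sample correlated best with its own number. These values cannot show whether a number marks a shared culture. With the replicate block 48 members were called lower, as in the same 16 samples without the number.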
